A study of Drosophila melanogaster with 14 samples.

Results

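The 2 arms described here, dme-miR-1-3p and dme-miR-133-3p (miR-1-3p and miR-133-3p below), are the mature products of the muscle miRNA genes mir-1 and mir-133. They were chosen by name, as 2 of the 466 mature miRNA arms in a table of small RNA read counts. The counts came from whole Drosophila melanogaster embryos. Both arms passed the filter that left 85 arms for testing, through libraries of stages 5 to 7 alone. An arm is the short RNA cut from the 5p or 3p side of a hairpin precursor. The table holds 14 libraries at 7 labelled stages, with 2 libraries per stage. The groups were stage 1 at 160 min, stage 2 at 300 min, stage 3 at 530 min, stage 4 at 645 min, stage 5 at 930 min, stage 6 at 1160 min and stage 7 at 1300 min. The labels state no strain, genotype or treatment and no starting point for the minutes, and growth and treatment are given only by reference to an earlier study. Nothing in them tells whether both libraries of a stage had their own embryo pool. The p-values therefore rest on a spread between libraries that may be technical only.

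miR-1 is an ancient animal miRNA whose sequence is shared between flies and vertebrates, and in both it is known from muscle. In the fly embryo, mir-1 is known to be transcribed in the mesoderm under the mesodermal factor Twist and the muscle factor Mef2, and larvae without it die with failing muscle. miR-133 is the partner of miR-1 in vertebrates, where the genes are transcribed together in skeletal and heart muscle and miR-133 restrains smooth muscle genes and proliferation in mammals. A mature arm acts by guiding an Argonaute protein to mRNAs that pair with its seed, the bases near its 5′ end. The other arm of each hairpin is usually degraded.

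In the fly annotation the hairpins lie on the same strand of the same chromosome arm but far apart. mir-1 (FBgn0262455) occupies 91 bases of dm6 chromosome 2L, from 20487441 to 20487531 on the plus strand. It lies in an exon of the long noncoding RNA gene lncRNA:CR45361, which runs from 20484399 to 20487548 on the same strand. mir-133 (FBgn0262445) occupies 98 bases from 20616617 to 20616714, also on the plus strand, inside an intron of lncRNA:CR44909, which is transcribed from the opposite strand (20583656 to 20626206). Between the hairpins are 129085 bases with 4 whole protein-coding genes and 1 other annotated hairpin, mir-4973. The arms of mir-4973, and the 3p arm of mir-288, which lies 1651 bases beyond mir-133 on the other strand, had no count in any of the 14 libraries.

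Both muscle arms were rare in early embryos and more abundant in late ones. miR-1-3p had no count in the stage 1 libraries, from 1 to 3 counts in each library of stages 2 and 3, and from 5 to 26 in each library from stage 4 on. miR-133-3p was already present at stage 1, had from 2 to 11 counts in each library through stage 4, and then stood several times higher from stage 5 to stage 7. Levels are given as counts and as TMM-scaled CPM, in which each count is brought to a common library size after a scaling factor (trimmed mean of M-values) that allows for the share taken by the most abundant arms. Library totals ran from 17462 to 72507 counts, and 1 count was worth between 10.1 and 57.2 CPM on this scale. Intervals cover counting error only. Stage 4 replicate 1 and stage 7 replicate 2 differed from the other library of their stage in some late arms and not in others. In CPM of the library total, miR-284-5p had 0 in stage 4 replicate 1 and 106 in replicate 2, and 757 in stage 7 replicate 2 and 9158 in replicate 1. On the same scale miR-981-3p had 333 and 331 in those stage 7 libraries. In whole embryos, fewer cells of a type and less RNA per cell cannot be told apart.

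**Figure D1:**
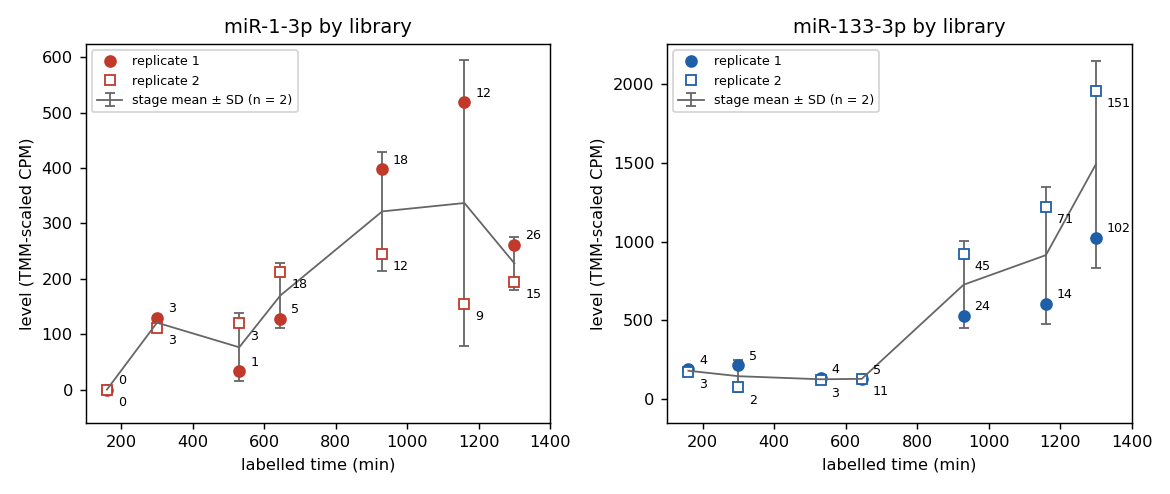
Level of miR-1-3p (left) and miR-133-3p (right) in each library against the labelled time in minutes, in TMM-scaled CPM, with the read count beside each point. Grey lines join the stage means, bars are the SD of the 2 libraries, filled circles are replicate 1 and open squares replicate 2. miR-1-3p is highest at stage 6 replicate 1 (519.0 CPM) and miR-133-3p at stage 7 replicate 2 (1955 CPM).

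miR-1-3p had 125 counts in all. Stage 1 gave 0 and 0 counts. This is 0 of 60953 counts, which allows a share of up to 0.00492%. Stage 2 gave 3 and 3 counts (130 and 112 CPM) and stage 3 gave 1 and 3 counts (33.1 and 120 CPM). The first reads of this muscle arm thus came at stage 2, in both libraries, at a level of 121 ± 12.8 CPM (SD, n = 2). Stage 4 gave 5 and 18 counts (128 and 212 CPM), and stage 5 gave 18 and 12 counts (398 and 246 CPM). Stage 6 gave 12 and 9 counts (519.0 and 155 CPM), and stage 7 gave 26 and 15 counts (261 and 194 CPM). The stage 6 libraries differed more than the means of stages 5 and 7, since stage 6 replicate 1, the shallowest library, was the highest of all and replicate 2 the lowest after stage 4. The stage means were highest at stage 6 (337 ± 258 CPM), then at stage 5 (322 ± 108), stage 7 (228 ± 47.4), stage 4 (170 ± 59.4), stage 2 and stage 3 (76.4 ± 61.2). In the edgeR quasi-likelihood test no neighbours in this order differed beyond their spread, with adjusted p-values from 0.258 to 0.989.

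miR-133-3p had 444 counts in all and at least 2 in every library. Stage 1 gave 4 and 3 counts (189 and 171 CPM), and stage 2 gave 5 and 2 counts (217 and 74.5 CPM). Stage 3 gave 4 and 3 counts (132 and 120 CPM), and stage 4 gave 5 and 11 counts (128 and 129.5 CPM). The 8 libraries of these stages overlapped each other, and no trend could be read from so few counts. Stage 5 gave 24 and 45 counts (531 and 921 CPM), stage 6 gave 14 and 71 counts (606 and 1221 CPM), and stage 7 gave 102 and 151 counts (1025 and 1955 CPM). Every library from stage 5 on lay above every library up to stage 4, by a margin from 217 to 531 CPM. How many other arms did so was not counted for this split. With stage 4 left out, 38.8% of all tested arms had no overlap in the rising direction, so such a separation was common. The stage means ran from 726 ± 276 CPM at stage 5 to 913 ± 435 at stage 6 and 1490 ± 658 at stage 7 (SD, n = 2). Stage 4 (129 ± 1.14) was 8.64% and stage 5 was 48.7% of the stage 7 mean. In the order of stage means the sole neighbours that differed beyond their spread were stage 5 and stage 1, which came next below it (log2 fold change 1.99 ± 0.720, SE; edgeR adjusted p = 0.0189). The others had adjusted p-values from 0.863 to 0.973.

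The test among all 7 stages called both muscle arms, at an adjusted p of 0.0417 for miR-1-3p and 6.03e-05 for miR-133-3p (edgeR quasi-likelihood F-test, Benjamini-Hochberg over the 85 arms). Since 81.2% of all tested arms passed, a call says little about these arms in particular. The call of miR-133-3p held in all 20 other settings in which it was tested, and that of miR-1-3p rested on single libraries. Its adjusted p was 0.101 without stage 1 replicate 1, 0.177 without stage 1 replicate 2, 0.103 without stage 2 replicate 1, 0.106 without stage 2 replicate 2 and 0.139 without stage 3 replicate 1. It was 0.0891 without stage 4 replicate 1, 0.155 without stage 5 replicate 1, 0.109 without stage 5 replicate 2 and 0.0610 without stage 7 replicate 2.

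Onset was taken as the first stage that differed from stage 1, and the steps were read from the same fit over all 21 pairs of stages. For miR-133-3p, 12 pairs passed, and these were the 12 that set stage 5, 6 or 7 against stage 1, 2, 3 or 4. Of all tested arms, 34.1%, 41.2% and 40.0% rose at stages 5, 6 and 7 against stage 2, and 32.9%, 38.8% and 34.1% against stage 3. Against stage 4, 18.8% rose at stage 6 and 17.6% at stage 7. Its step from stage 4 to stage 5 was 2.47 ± 0.653 on the log2 scale (SE; edgeR adjusted p = 0.0133), a pooled ratio of 69 to 16 counts that is 5.69-fold on the TMM scale with a 95% interval of 3.27 to 10.5. At this step 5.88% of tested arms rose, namely miR-133-3p, miR-277-3p, miR-284-5p, miR-927-5p and miR-957-3p. The other steps of miR-133-3p did not pass, with log2 fold changes of -0.34 ± 0.868, -0.17 ± 0.867, 0.03 ± 0.790, 0.36 ± 0.579 and 0.67 ± 0.565 in order of stage. From stage 5 to stage 7 it had 1.03 ± 0.568 (adjusted p = 0.546).

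The step from stage 4 to stage 5 was called with all libraries and under other scalings, but not when any 1 library of those stages alone was left out. The edgeR adjusted p was then 0.132 without stage 4 replicate 1 (2.49), 0.0587 without stage 4 replicate 2 (2.501), 0.0724 without stage 5 replicate 1 (2.92) and 0.213 without stage 5 replicate 2 (1.87), where the values in brackets are the log2 fold changes of miR-133-3p. Against stage 1, miR-133-3p was higher at stage 6 (2.35 ± 0.718, adjusted p = 0.00644, where 49.4% of arms rose) and at stage 7 (3.02 ± 0.706, adjusted p = 0.000903, where 50.6% rose). At stage 5, 43.5% rose. Without stage 1 replicate 2 none of these 3 passed, at log2 fold changes of 1.21, 1.499 and 1.88 for stages 5, 6 and 7. Without stage 5 replicate 2 the stage 5 value was 0.83, and 7 of the 21 pairs passed. The stage 5 value also missed the threshold without stage 1 replicate 1 (2.11), stage 2 replicate 1 (1.45), stage 2 replicate 2 (1.45), stage 3 replicate 1 (1.45), stage 4 replicate 1 (1.45), stage 5 replicate 1 (1.88) or stage 7 replicate 2 (1.44), and without stage 4 replicate 1 and stage 7 replicate 2 together (1.44). The stage 6 value missed it without stage 2 replicate 1 (1.73), stage 5 replicate 1 (1.73), stage 5 replicate 2 (1.73) or stage 6 replicate 2 (1.78), and the stage 7 value without stage 7 replicate 2 (1.83).

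For miR-1-3p, 4 pairs passed, and each set a later stage against stage 1, where the arm had no count. Taking 3 counts over the stage 1 libraries as the floor, miR-1-3p was 2.39-fold higher at stage 4 (23 counts, edgeR adjusted p = 0.0236). It was 4.11-fold higher at stage 5 (30 counts, edgeR adjusted p = 0.00468) and 3.33-fold at stage 6 (21 counts, adjusted p = 0.00531). At stage 7 it was 2.99-fold higher (41 counts, edgeR adjusted p = 0.00824). With counting error, the exact lower 95% limits against no count at stage 1 were below these values. They were 1.79-fold at stage 4, 3.14-fold at stage 5, 2.48-fold at stage 6 and 2.32-fold at stage 7. The percentage of arms higher than in stage 1 was 32.9% at stage 4. The 6 counts of stage 2 (edgeR adjusted p = 0.142, where 15.3% of arms rose) and the 4 of stage 3 (adjusted p = 0.258, where 11.8% rose) did not pass against stage 1 at this depth. By this rule the first call was at stage 4 for miR-1-3p and at stage 5 for miR-133-3p, which already had counts at stage 1. The difference in onset was not tested. For miR-1-3p, stage 4 did not differ from stage 2 (log2 fold change 0.54 ± 0.917, SE; edgeR adjusted p = 0.682). Stage 4 was also deeper, with 100028 counts in its libraries against 60953 at stage 1 and 66108 at stage 2. For miR-1-3p, stage 4 did not pass without stage 1 replicate 1 (adjusted p = 0.113), stage 1 replicate 2 (0.164), stage 2 replicate 1 (0.0564), stage 2 replicate 2 (0.0560), stage 4 replicate 2 (0.0824), stage 5 replicate 1 (0.0594) or stage 5 replicate 2 (0.0579), nor with all libraries thinned to the depth of the shallowest (0.186). Without stage 1 replicate 2 none of the 21 pairs passed, and miR-1-3p had adjusted p-values of 0.0624, 0.0618 and 0.109 at stages 5, 6 and 7. The number of pairs depended on the scaling, with 7 for DESeq2 size factors and 9 for library size alone. No step of miR-1-3p between neighbouring stages passed, at -0.69 ± 1.13, 1.23 ± 0.981, 0.86 ± 0.755, -0.06 ± 0.755 and -0.43 ± 0.754 from stage 2 on.

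**Figure D2:**
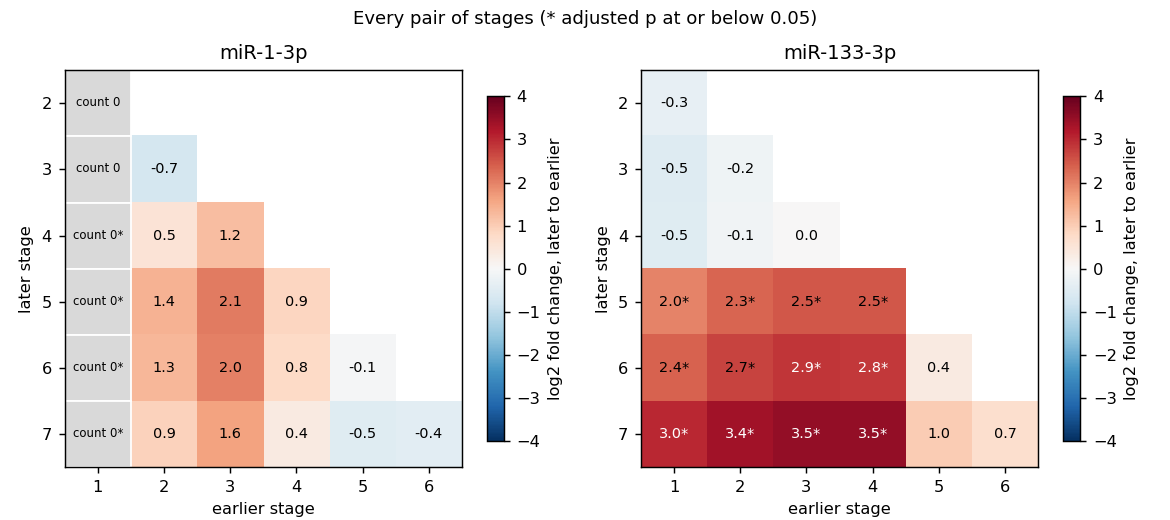
Fitted log2 fold change of the later stage (rows) against the earlier stage (columns) for miR-1-3p (left) and miR-133-3p (right), with an asterisk where the edgeR adjusted p is at or below 0.05. Grey cells have no fold change because miR-1-3p had a count of 0 in stage 1. Asterisks fill the 12 cells of stages 5 to 7 against stages 1 to 4 for miR-133-3p and 4 cells of the stage 1 column for miR-1-3p.

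For a test with more libraries a side, stages 5 to 7 (late, 6 libraries) were compared with stages 1 to 3 (early, 6 libraries). miR-1-3p ran from 0 to 130 CPM early (median 72.4) and from 155 to 519.0 CPM late (median 254), with 10 against 92 counts. miR-133-3p ran from 74.5 to 217 CPM early (median 152) and from 531 to 1955 CPM late (median 973), with 21 against 407 counts. Neither arm had overlapping groups, and the same held for 38.8% of all tested arms in the rising direction. The fitted log2 fold changes were 3.26 ± 0.803 for miR-1-3p (edgeR adjusted p = 0.00105) and 2.74 ± 0.411 for miR-133-3p (adjusted p = 5.51e-06), at places 25 and 28 in the order of rises among the 85 arms, of which 50.6% rose. Both arms had passed the filter through late libraries alone, with at most 3 and 5 counts in an early library. An arm so rare early could enter this test only if it was higher in another stage, which weakens both calls. Without the filter the fitted values were 3.48 and 3.09. The fitted value of miR-1-3p averages over stages on the log scale and so depends on how the stage without a count is handled. In pooled counts the order was the other way round: miR-1-3p was 3.76-fold higher late, with a 95% counting interval of 1.95 to 8.10, and miR-133-3p was 7.92-fold higher, with an interval of 5.11 to 12.9. With stages 2 and 3 alone as the early group, a comparison chosen after the values were seen, the fitted log2 fold changes were 1.56 for miR-1-3p (adjusted p = 0.02700) and 2.88 for miR-133-3p (adjusted p = 2.62e-05), where 47.1% of arms rose. On library size alone the pooled ratios were 7.35 and 15.5. Without stage 4 replicate 1 and stage 7 replicate 2 together, a setting added after the values were seen, the log2 fold changes were 3.09 (edgeR adjusted p = 0.000786) and 2.19 (adjusted p = 2.44e-06), and the step of miR-133-3p from stage 4 to stage 5 was 2.48 (adjusted p = 0.0330).

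The balance between the muscle arms was read inside each library, where no scaling is needed. Of the reads of both arms, miR-1-3p held 0 of 7 at stage 1, 6 of 13 at stage 2 and 4 of 11 at stage 3. It held 23 of 39 at stage 4, or 58.97% with an exact 95% interval of 42.1% to 74.4%. After that its share was 30.3% at stage 5 (21.5% to 40.4%), 19.8% at stage 6 (12.7% to 28.7%) and 13.9% at stage 7 (10.2% to 18.4%). miR-1-3p was thus at or above its partner in both stage 4 libraries, with 5 against 5 and 18 against 11 counts, and below it in all 6 late libraries. The libraries of a stage differed, most at stage 6, with 46.2% in replicate 1 and 11.3% in replicate 2.

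The planned comparison of this ratio, late against early, did not pass. The mean log2 ratio of miR-1-3p to miR-133-3p (0.5 added to each count) was -1.77 ± 1.26 late and -1.29 ± 1.49 early (SD, n = 6 each). The difference was -0.48 ± 0.798 (SE), with an exact two-sided permutation p = 0.541, or 0.609 adjusted over the 9 ratios tested. The early mean includes the stage 1 libraries, at -3.17 and -2.81, where miR-1-3p had no count. Those values rest largely on the 0.5 added, and the other early libraries ran from -1.58 to 0.49. Stages 5 to 7 against stages 2 to 4, a split chosen after the values were seen, gave a difference of -1.60 ± 0.616 with an exact permutation p = 0.0303, or 0.0682 adjusted over 9, and the ranges overlapped. A difference between the muscle arms was therefore not shown by either split. Single steps cannot be tested this way, because 2 libraries against 2 allow no p below 0.333.

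**Figure D3:**
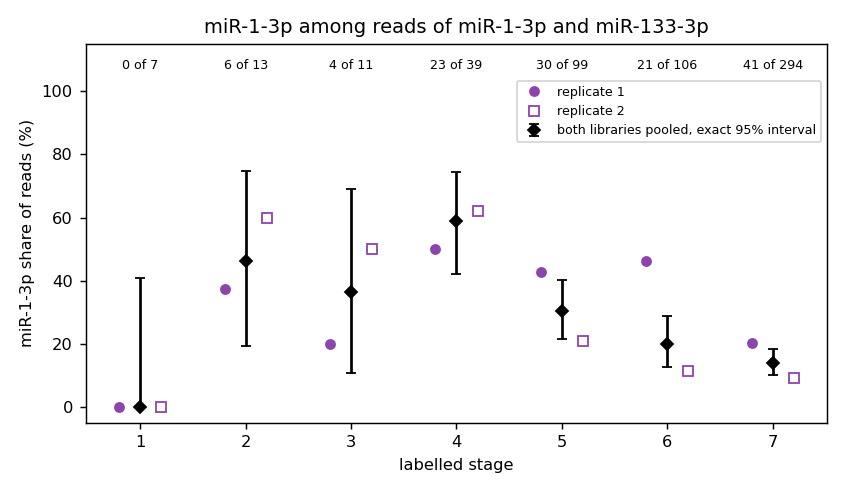
Share of miR-1-3p among the reads of miR-1-3p and miR-133-3p, in percent, by labelled stage. Diamonds are both libraries pooled with an exact 95% interval, circles and squares are replicates 1 and 2, and the counts stand above each stage. The pooled share is 58.97% at stage 4 and 13.9% at stage 7.

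The other arms of the hairpins were rarer than the muscle arms themselves. miR-133-5p had no count at stages 1 to 3, where its partner had 21, and 1 count at stage 4. At stage 5 its libraries gave 5 and 5 counts, at stage 6 they gave 0 and 12, and at stage 7 they gave 9 and 6. Both arms of the mir-133 hairpin thus had more counts late than early. With 37 late counts, miR-133-5p was 5.04-fold higher late, taking 3 counts over all early libraries as the floor. With counting error, its exact lower 95% limit against 0 early counts was 3.90-fold. Its share of the hairpin's reads was 12.7% at stage 5 (exact 95% interval 6.24% to 22.0%), 12.4% at stage 6 (6.56% to 20.6%) and 5.60% at stage 7 (3.17% to 9.06%). The early share could be as high as 16.1% by the same kind of interval, since 0 of 21 reads were 5p. miR-1-5p had 2 counts, both in stage 3 replicate 2, a library with 3 counts of miR-1-3p. In late embryos it had 0 of 92 reads of the hairpin, which allows a share of up to 3.93% (exact 95% interval). Neither 5p arm was abundant enough to test.

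Set against all arms, the muscle miRNAs were far less abundant than the leading arms. In CPM of the library total, without the scaling factor, miR-133-3p had a mean over the 14 libraries of 659 CPM and came 50th among the 251 arms with a count, between miR-31b-5p (662 CPM) and miR-9b-5p (656 CPM). miR-1-3p had a mean of 223 CPM and came 76th, between miR-927-3p (224 CPM) and miR-252-5p (222 CPM). These neighbours in the order differed by far less than the range of any of them over the libraries. For comparison, bantam-3p, a growth-promoting miRNA, had a mean of 88534 CPM, and miR-8-3p, known from epithelia, had 66767 CPM. Mature arms have nearly the same length, so reads were not divided by length. How well each sequence enters a library was not tested.

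The place of miR-133-3p within a library moved from between 57th and 79th in the early libraries to between 29th and 50th in the late ones, best in stage 7 replicate 2. miR-1-3p, where it had a count, was between 70th and 96th early and between 49th and 76th late, best in stage 6 replicate 1. At its highest, miR-133-3p made up 0.229% of the counts of a library and miR-1-3p 0.0687%. Early libraries had counts for 90 to 123 arms and late ones for 135 to 176, so places in different stages are out of different numbers. miR-286-3p, the dominant early arm, takes up much of the early totals. With it left out of the total, the mean share of miR-133-3p at stage 1 was 0.0325% in place of 0.0115%, and that of miR-1-3p at stage 2 was 0.0214% in place of 0.00908%.

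**Figure D4:**
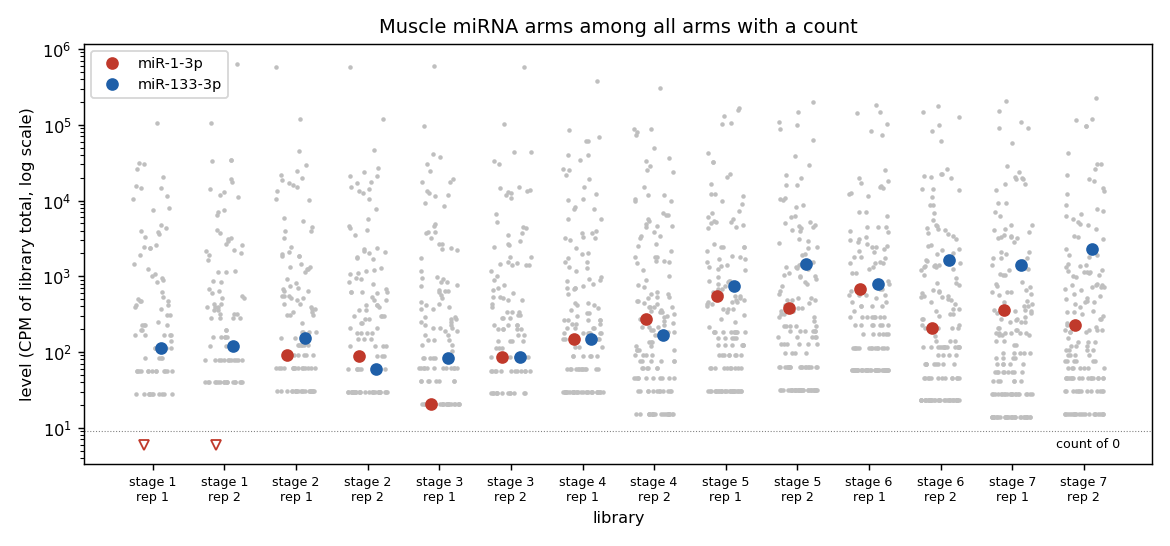
Level of every arm with a count in each of the 14 libraries, in CPM of the library total on a log scale, with miR-1-3p in red and miR-133-3p in blue. Open triangles mark a count of 0, which occurs for miR-1-3p in both stage 1 libraries. miR-133-3p stands above miR-1-3p in all 6 late libraries.

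The muscle arms were then set against 4 abundant arms inside each library: bantam-3p, miR-8-3p, miR-315-5p, known from the nervous system, and miR-10-5p, from the Hox cluster. miR-133-3p rose against miR-10-5p by 2.07 ± 0.403 on the log2 scale late against early (SE), with no overlap of the 6 libraries on each side. The exact permutation p was 0.00216, the smallest that 6 against 6 allow, or 0.00974 adjusted over the 9 ratios. How many other arms rose against miR-10-5p was not counted. On the TMM scale 50.6% of all tested arms rose late, and 38.8% had no overlap in the rising direction. The result therefore says little about miR-133-3p in particular. miR-1-3p also rose against miR-10-5p, by 1.59 ± 0.485 (exact permutation p = 0.0130, adjusted 0.0234). Both fell behind miR-8-3p, with log2 differences of -2.27 ± 0.504 for miR-1-3p (exact permutation p = 0.00216, adjusted 0.00974, no overlap) and -1.78 ± 0.497 for miR-133-3p (exact permutation p = 0.0108, adjusted 0.0234). Thus the muscle arms rose late, but less than the epithelial arm did. In the stage 1 libraries, where miR-1-3p had no count, its ratios to miR-10-5p and miR-8-3p depend on the 0.5 added to each count.

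Against miR-315-5p, miR-1-3p fell by 2.53 on the log2 scale (± 0.866, exact permutation p = 0.00866, adjusted 0.0234), while miR-133-3p had -2.05 ± 1.36 (exact permutation p = 0.180, adjusted 0.269). However, miR-315-5p was not abundant at stage 1, where it had 0 and 3 counts. The ratios of miR-1-3p to it there, 0 and -2.81, rest largely on the 0.5 added to each count. They enter the early side of this test. Against bantam-3p neither passed, with -0.14 ± 0.595 for miR-1-3p (exact permutation p = 0.823, also after adjustment) and 0.35 ± 0.377 for miR-133-3p (exact permutation p = 0.390, adjusted 0.501). At these depths the ratio to bantam-3p could have moved by more than its error without being seen. With 2 in place of 0.5 added to each count, miR-1-3p lost its call against miR-10-5p (0.64, adjusted 0.0877) and had -1.08 against bantam-3p (adjusted 0.0429). With stages 2 to 4 as the earlier group, of the 5 ratios called the one that passed was miR-133-3p to miR-10-5p (2.46, adjusted 0.0195). miR-8-3p and miR-315-5p were high by stage 4, and there miR-133-3p was not.

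**Figure D5:**
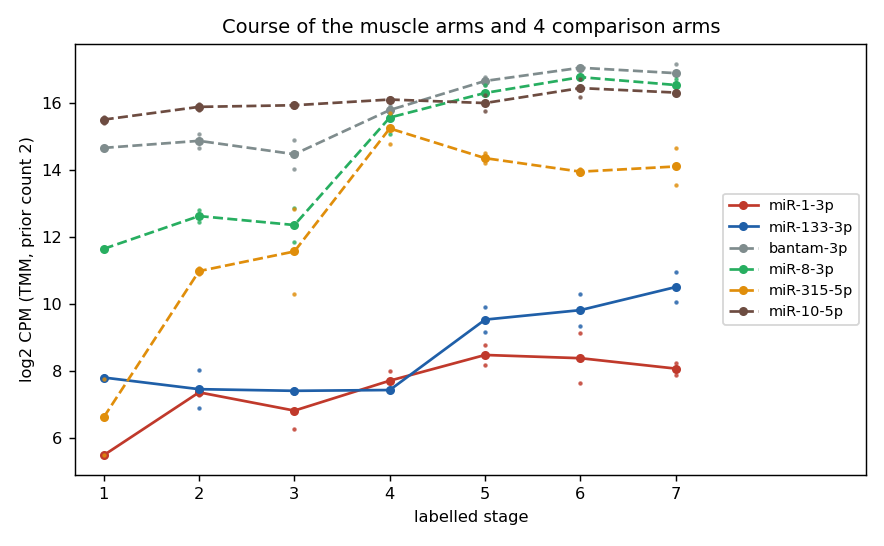
Mean log2 CPM (TMM, prior count 2) by labelled stage for miR-1-3p and miR-133-3p (solid lines) and for bantam-3p, miR-8-3p, miR-315-5p and miR-10-5p (dashed lines), with small points for single libraries. miR-8-3p and miR-315-5p are high by stage 4, while miR-133-3p has 7.44 at stage 4 and 9.54 at stage 5.

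The arms with the most similar course over the 7 stage means of log2 CPM were different for the muscle arms. For miR-1-3p they were miR-276a-3p (Pearson r = 0.975), bantam-5p (0.962), miR-14-5p (0.959), miR-968-5p (0.946) and miR-8-5p (0.946). For miR-133-3p they were miR-927-5p (0.971), miR-284-5p (0.969), miR-981-3p (0.965), miR-277-3p (0.953) and miR-956-3p (0.946), each with at most 1 count in any early library. The muscle arms had r = 0.640 with each other, which put miR-133-3p at place 41 of 84 for miR-1-3p and miR-1-3p at place 32 for miR-133-3p. Over the 14 single libraries r was 0.514. These correlations describe 7 points that share libraries, scaling and the course of development, and with a count of 0 at stage 1 the first point of miR-1-3p is set by the prior count. Over the 14 libraries, 3 of the 5 arms named were again among the 5 most like for each muscle arm.

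None of the 3 other arms listed for a known part in muscle or tendon rose late against early. In this list, miR-92b-3p, which is known in the fly to act on Mef2, fell late against early (log2 fold change -3.62 ± 0.2004, edgeR adjusted p = 7.94e-12), as did its relative miR-92a-3p (-3.90 ± 0.324). miR-9a-5p, known in the fly from muscle attachment and sensory organs, had -0.25 ± 0.214 (adjusted p = 0.297). The list median was -3.62, against 0.86 over all 85 arms, of which 29.4% fell. For other tissues, where 50.6% of all tested arms rose, 3 of 4 tested arms of the nervous system list rose and none fell (median 4.11), and 8 of 8 epithelial and gut arms rose (median 3.95). In these lists, miR-87-5p (nervous system) and miR-375-3p (epithelium and gut) had no count in any early library. Such arms could enter the test only through other stages, so their rise was set by the filter. This weakens the counts and medians of both lists as a yardstick. All 6 tested arms of the blastoderm miR-309 cluster list fell (median -3.02). The log2 fold changes of miR-1-3p and miR-133-3p, 3.26 and 2.74, lay below the medians of both rising lists.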

How the data were processed

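The authors' file gives, as deposited, unnormalized read counts for mature arms, and columns were assigned to libraries through the sample titles. Per the submitters' processing notes, Bowtie, HTSeq and build dm6 were used, without versions. How reads matching several loci were counted is not given in the sources used here. Per the labels' protocols, 1 ng of TRIzol-extracted total RNA entered a TruSeq small RNA preparation with 15 PCR cycles. Reads carry no molecular identifiers.

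Counts were fitted in R 4.3.3 with edgeR 4.0.16 (TMM, filterByExpr by stage, quasi-likelihood, 1 coefficient per stage, 14 libraries). Calls were made at a Benjamini-Hochberg adjusted p of 0.05 over 85 arms, within each comparison and not across them. Standard errors were derived from the fold change and F. Intervals are exact binomial at 95%, computed with scipy 1.17.1. Ratios within libraries were compared with an exact permutation test over 924 splits. DESeq2 1.42.0 was an alternative. The code was tested on simulated counts. Hairpin positions come from Ensembl release 115. Figures used matplotlib 3.10.9.

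Replicates were numbered in accession order. The members, lists and tests were chosen with earlier results of these data known. Named arms are the members, their hairpins' other arms, the 5 most alike, neighbours in level, 4 comparison arms and listed arms. miR-957-3p, which completes a count of 5, and miR-286-3p, in the total without it, were named after their values were seen.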

Additional observations from a re-analysis of the deposited data

How the results depend on the processing

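The rise of miR-1-3p and miR-133-3p late against early kept its direction and its call in all 22 other settings, between 1.56 and 3.97 and between 2.08 and 4.99 on the log2 scale; without 1 library these ran from 2.90 to 3.73 and from 2.08 to 3.01. A mean count of at least 50 gives no value for them, because neither reaches it; 39 arms were then tested, 33 differed among stages and 16 were higher late. Without a filter 66 arms were higher late. Without stage 4 replicate 1 and stage 7 replicate 2 together 38 were lower. The call of miR-1-3p among stages had an adjusted p of 0.0667 in thinned counts and from 0.0206 to 0.177 without 1 library. Without 1 library, from 0 to 6 of 21 pairs passed for miR-1-3p and from 7 to 12 for miR-133-3p. With DESeq2 size factors 7 pairs of miR-1-3p passed and with library size alone 9. Library size alone put the pooled ratio of miR-133-3p at 15.5, and moved the median log2 fold change of all arms by 0.97 (0.45 with DESeq2 size factors). DESeq2 size factors and library size alone left the called changes of both arms in the same direction.

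Of 451 single steps and comparisons with stage 1 under other settings, 407 kept their call and direction, 33 lost the call and 11 changed sign; none of the 11 had been called. The sign changes were, for miR-1-3p, stage 6 against 5 (0.056 with DESeq2, 0.082 thinned, 0.20 without stage 5 replicate 1, and from -1.10 to 0.65 over all libraries left out) and stage 7 against 6 (from -1.003 to 0.69, positive without stage 6 replicate 1). For miR-133-3p they were stage 4 against 1 (0.45 with library size alone, 1.05 thinned), 2 against 1 (from -1.41 to 0.10), 3 against 2 (from -1.18 to 0.33) and 6 against 5 (from -0.30 to 0.90) without 1 library. In thinned counts miR-133-3p lost the step from stage 4 to 5 (2.05, adjusted p = 0.116) and miR-1-3p the call of stage 4 against 1 (adjusted p = 0.186).

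Among the 9 ratios within libraries, some values or calls changed under other settings. With 2 added to each count, miR-1-3p to bantam-3p was -1.08, miR-1-3p to miR-10-5p 0.64 and miR-133-3p to bantam-3p -0.072. With stages 6 and 7 against 1 and 2 none passed after adjustment, which says little, because 4 libraries a side allow no exact p below 0.0286 and 6 of the 9 ratios would have to reach it to pass. The values there were miR-1-3p at -2.41 to miR-8-3p, -3.38 to miR-315-5p and 1.43 to miR-10-5p, and miR-133-3p at -1.85 to miR-8-3p and 1.99 to miR-10-5p. With stages 2 to 4 as the earlier group, miR-1-3p had -1.88 to miR-8-3p, -0.40 to miR-315-5p and 0.87 to miR-10-5p, and miR-133-3p had -0.28 to miR-8-3p and 1.19 to miR-315-5p. Without 1 library, miR-1-3p to bantam-3p ran from -0.44 to 0.20, and was 0.02 without stage 2 replicate 1, 0.06 without stage 2 replicate 2, 0.05 without stage 6 replicate 2 and 0.20 without stage 3 replicate 2. Over the 14 libraries, 3 of the 5 most similar arms of each muscle arm were shared. The cause of these changes was not tested. No paired analysis was possible because the labels carry no replicate numbers. With at most 26 counts of miR-1-3p in a library, its steps are limited by depth.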
